A study of Anas platyrhynchos with 8 samples.

Results

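Female birds carry a Z and a W sex chromosome, male birds a pair of Z, and some genes have kept a copy on both. The 34 gene symbols described here are such Z-linked genes, those whose transcripts include W copies, and further Z-linked genes measured in duck abdominal fat. They were chosen from an earlier look at the difference between fat groups in these libraries. Rows of the deposited mRNA table were taken by symbol, together with each row described as Wpkci or W-linked, which gave 158 of 48592 transcript rows. Of the 34 symbols, 33 had a row and 32 passed the filter on low counts, against 10511 genes tested of 13213 in all. SPIN1, a reader of histone marks, had no row under its symbol, and rows under the symbol SPINZ were not taken as members. The single row of DMRT1, the transcription factor tied to testis development in birds, was at 0 in all 8 libraries.

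Abdominal fat of ducks (Anas platyrhynchos) from an F2 population, kept under the same conditions, was taken 42 days after birth. The groups were 4 libraries of ducks high in abdominal fat rate (HF-1 to HF-4) and 4 of ducks with a low rate (LF-1 to LF-4), set side by side to ask which transcripts differ with fat deposition. No treatment or transgene is named, both groups share the population, the tissue and the age, and the labels give neither the birds' sex nor whether a library is 1 bird or a pool.

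Z and W descend from the same ancestral chromosome, and W has lost most of its genes. The genes with surviving W copies are often regulators of chromatin, transcription, protein turnover and signalling. Birds do not silence a whole Z chromosome in males, and compensation varies from gene to gene. In chicken the W chromosome also carries many copies of Wpkci (HINTW), a relative of HINT1.

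The total of estimated counts ran from 12696240 to 30836178 per library, and 3 counts, the limit that a count of 0 allows, corresponded to between 0.101 and 0.241 CPM (counts scaled to the library total, with the trimmed mean of M values). All 6 adipocyte markers stood above 1 CPM in all 8 libraries, with summed levels of 13469 to 18767 CPM in HF and 13359 to 20720 in LF. Summed endothelial markers ran from 2688 to 5462 CPM in HF and from 4689 to 6646 in LF, and macrophage markers from 249 to 394 and from 208 to 294. Skeletal muscle markers varied most, from 8.62 to 64.5 CPM in HF and from 4.42 to 143 in LF, highest in LF-3 and HF-3. Erythroid markers ran from 187 to 657 CPM in HF and from 228 to 532 in LF. None of the 7 gonad and germ cell markers was above 1 CPM in every library. The part of these cell types in the values below was not tested, and in bulk tissue fewer cells of a type and less RNA per cell cannot be told apart.

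The libraries did not divide by fat group in the transcripts described as W copies. The 8 rows that the deposited table describes as Wpkci or W-linked held 4226, 1818, 3410 and 2846 estimated counts across HF-1 to HF-4, 8, 7 and 3 across LF-1 to LF-3 and 2861 in LF-4. LF-4 thus lay with the HF libraries in these 8 rows, and the other LF libraries were near 0. The 40 rows of the whole table that a reference gene table places on W, members or not, were not near 0 there as a whole, with 10061, 5877, 10140 and 9213 counts across HF-1 to HF-4, 2374, 7234 and 5472 across LF-1 to LF-3 and 12175 in LF-4. The row with the most of these counts, of BTBD9, which is no member, held 1322, 4084 and 3454 in LF-1 to LF-3 and 3937 in LF-4. A row of GLO1, no member either, held 773, 2056 and 1362 in LF-1 to LF-3 and 2389 in LF-4. Together the rows of BTBD9 and GLO1 held most of the counts of W-placed rows in LF-1 to LF-3. A row of SPINZ, also outside the members, held 233, 294, 268 and 414 across HF-1 to HF-4. That row was at 0 in LF-1 to LF-3 and at 498 in LF-4. Another SPINZ row held counts in every library, with 48.8, 126 and 82.8 in LF-1 to LF-3. Since all 4 HF libraries and 1 of 4 LF libraries carry the described transcripts, the fat group and the W content of a library cannot be told apart in the HF and LF means, and LF-4 is given apart throughout.

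W copies were told from other rows in 3 ways. The description named 8 rows, 6 of them Wpkci and 1 each W-linked RASA1 and W-linked KCMF1. The chromosome of the same RefSeq accession in the reference gene table (assembly IASCAAS_PekinDuck_T2T) added 13 rows on W. A further criterion, set after the counts were seen, took rows with at least 100 counts of which at most 3% lay in LF-1 to LF-3, so low values in those libraries are a property of the choice and not a result for such rows. Setting such rows apart also takes counts from HF and LF-4 and hardly any from LF-1 to LF-3, so that the rows left over are by construction lower in HF and LF-4, relative to LF-1 to LF-3, than the whole symbol. It held for 51 of the 127 member rows with at least 100 counts (40.2%), against 696 of 24857 such rows in the whole table (2.80%). The 31 member rows with fewer counts could not meet it.

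These criteria could be set beside each other where a row had more than 1. All 8 rows described as W copies met the count criterion. Of the 13 member rows placed on W, 11 had at least 100 counts and 9 met it, and of the 29 placed on Z, 23 had such counts and 0 met it. In the whole table it held for 16 of 25 rows placed on W and for 3 of 275 placed on Z, so not every row placed on W is near 0 in LF-1 to LF-3. The reference left 115 member rows unplaced, and 34 of the rows that met the count criterion were among them. The values fell mostly far from the limit of 3%, with 48 rows under 1%, 3 from 1% to 3%, 2 from 3% to 10%, 6 from 10% to 20% and 68 at 20% or more. Just inside the limit lay a ZSWIM6 row at 2.49%, and just outside it rows of NIPBL at 3.12% and ZFR at 3.56%. With all 3 criteria together 19 symbols had W copies, against 9 by description or reference and 3 by description alone.

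A pair of rows placed on W did not behave like the others in LF-1 to LF-3. The row of HNRNPK, which encodes an RNA-binding protein of nuclear ribonucleoproteins, that the reference places on W (XM_027448278.1) held 193, 88.7, 184 and 125 estimated counts across HF-1 to HF-4, against 62, 125 and 78 across LF-1 to LF-3 and 123 in LF-4. It was never near 0. A SMAD7 row on W (XM_027448099.1) held 69.9, 51.7, 143 and 37.7 estimated counts across HF-1 to HF-4, against 21.7, 54.6 and 43.5 across LF-1 to LF-3 and 51.7 in LF-4, again with counts in every library. How the quantifier shared reads between near-identical copies is not given in the sources used here, so counts of W and Z copies are uncertain to the extent that reads fit both.

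**Figure D1:**
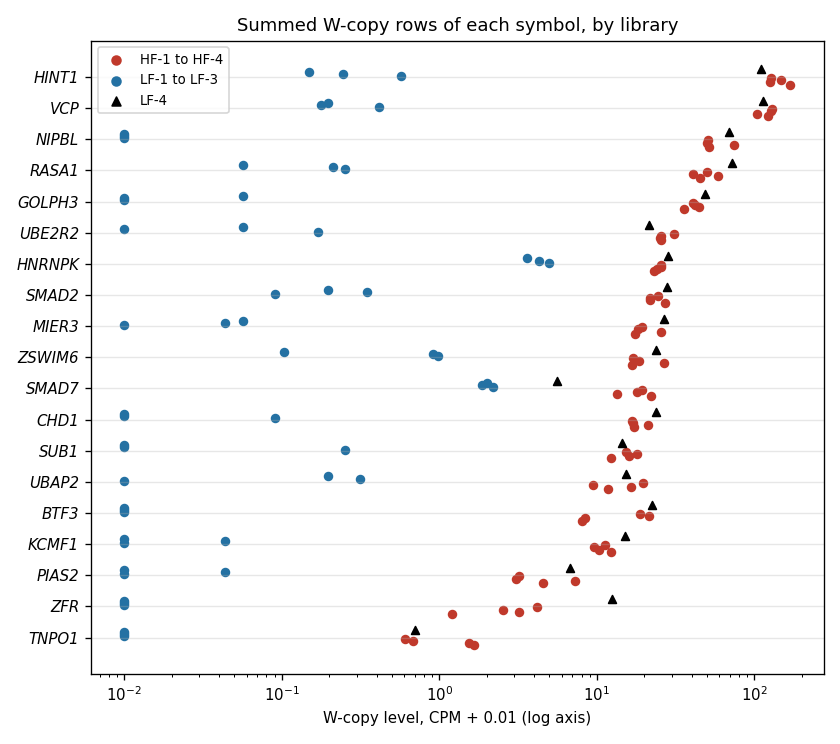
Level of the W copies of each member symbol in each library, in CPM plus 0.01 on a log axis, with HF, LF-1 to LF-3 and LF-4 marked apart. The points of LF-4 lie nearer to those of HF in 18 of 19 symbols, while LF-1 to LF-3 lie near 0 except in HNRNPK and SMAD7. LF-4 was within the HF range in 7 of the 19 and outside both ranges in 12.

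HINT1, a histidine triad hydrolase of nucleoside phosphoramidates, and its W-linked relative Wpkci had the highest W level per length, at 209.8, 161, 185 and 157 FPKM across HF-1 to HF-4, against 0.800, 0.330 and 0.170 across LF-1 to LF-3 and 130.3 in LF-4. The assembled model TCONS_00070948 held 2387, 1034, 1877 and 1530.2 estimated counts across HF-1 to HF-4, against 6, 6 and 3 across LF-1 to LF-3 and 1103 in LF-4. The RefSeq row XM_027447850.1, which carries no symbol, held 1453, 591, 1225 and 1099.6 estimated counts across HF-1 to HF-4, against 0, 0 and 0 across LF-1 to LF-3 and 1389 in LF-4. Both rows were thus at 591 counts or more in each HF library and in LF-4, and at 6 counts or fewer in LF-1 to LF-3.

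The other Wpkci rows were smaller and had the same pattern. XM_027447849.1 held 101, 40.2, 67.1 and 101 estimated counts across HF-1 to HF-4, against 0, 0 and 0 across LF-1 to LF-3 and 140.3 in LF-4. TCONS_00070926 held 65.8, 24.8, 68 and 36.3 estimated counts across HF-1 to HF-4, against 1, 1 and 0 across LF-1 to LF-3 and 33.3 in LF-4. TCONS_00070925 held 41.1, 8.43, 40.4 and 17.9 estimated counts across HF-1 to HF-4, against 0, 0 and 0 across LF-1 to LF-3 and 33 in LF-4, and TCONS_00070927 held 40.4, 20.4, 12 and 4.85 estimated counts across HF-1 to HF-4, against 0, 0 and 0 across LF-1 to LF-3 and 26.5 in LF-4. No library of LF-1 to LF-3 had more than 1 count in any of these 4 rows.

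All Wpkci rows together stood at 169.5, 126, 148 and 128 CPM in HF-1 to HF-4, 0.563, 0.235 and 0.139 in LF-1 to LF-3 and 110.4 in LF-4. The row of HINT1 placed on Z stood at 9.74, 8.69, 11.2 and 8.37 CPM in HF-1 to HF-4, 10.5, 13.6 and 9.65 in LF-1 to LF-3 and 10.4 in LF-4, with HF and LF overlapping. Of the Wpkci and HINT1 counts together, the W copies made up 92.9% to 94.6% in HF and 91.4% in LF-4, with a 95% Clopper-Pearson interval of 90.3% to 92.4% in LF-4. Intervals of this kind cover counting error only.

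Summed under its symbol, which leaves out the 3 Wpkci rows without one, HINT1 had a log2 fold change (HF over LF) of 2.02 ± 0.53, its Z row one of -0.22 ± 0.18. Without LF-4 the value of the whole symbol was 3.02. The sum thus followed the W rows, and the Z row alone differed by little more than its error.

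RASA1 and KCMF1 are the other symbols with a row described as W-linked. RASA1, which switches off Ras by stimulating its GTPase activity, had 94.3, 77.2, 78 and 6.56 estimated counts across HF-1 to HF-4, against 1, 0 and 0 across LF-1 to LF-3 and 86.1 in LF-4 in its W-linked row, and HF-4 was far below the other HF libraries there. Its W copies together stood at 45.4, 58.8, 40.6 and 49.9 CPM in HF-1 to HF-4, 0.241, 0.202 and 0.0464 in LF-1 to LF-3 and 71.8 in LF-4, and LF-4 was the highest of the 8 libraries. Its other rows stood at 40.8, 44.6, 50.6 and 42.9 CPM in HF-1 to HF-4, 74.2, 64.1 and 68.3 in LF-1 to LF-3 and 56.6 in LF-4, every LF library above every HF library. KCMF1, a ubiquitin ligase, had 43, 22, 42 and 49 estimated counts across HF-1 to HF-4, against 0, 0 and 0 across LF-1 to LF-3 and 50 in LF-4 in its W-linked row. All its W copies stood at 12.3, 10.3, 9.61 and 11.2 CPM in HF-1 to HF-4, 0, 0.0336 and 0 in LF-1 to LF-3 and 15 in LF-4 and its other rows at 19.3, 19.5, 25.7 and 23.2 CPM in HF-1 to HF-4, 42.6, 36.3 and 35.6 in LF-1 to LF-3 and 25.3 in LF-4, where LF-4 fell within the HF range.

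In RASA1 the log2 fold change of the other rows was -0.56 ± 0.13 and that of the whole symbol 0.15 ± 0.21. In KCMF1 they were -0.67 ± 0.18 and -0.24 ± 0.12. The shift from the first value to the second follows in direction from taking out the W rows.

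Golgi, chromatin and translation genes with rows placed on W came next. GOLPH3, which binds phosphatidylinositol 4-phosphate at the Golgi, had W copies at 35.8, 44.2, 42.2 and 40.6 CPM in HF-1 to HF-4, 0, 0 and 0.0464 in LF-1 to LF-3 and 48.5 in LF-4. Its other rows stood at 52.6, 67.8, 65.6 and 65.1 CPM in HF-1 to HF-4, 91.2, 97.1 and 95.3 in LF-1 to LF-3 and 63.6 in LF-4, and again LF-4 was in the HF range. The W share of its counts was 38.4% to 40.5% in HF and 43.3% in LF-4, with an interval of 41.4% to 45.2% in LF-4. Per length, in FPKM, the W share was higher, 61.3% to 63.4% in HF and 65.9% in LF-4.

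MIER3, a corepressor that binds histone deacetylases, had W copies at 17.5, 25.7, 18.4 and 19.3 CPM in HF-1 to HF-4, 0, 0.0336 and 0.0464 in LF-1 to LF-3 and 26.6 in LF-4. Its other rows stood at 13.6, 24.5, 18.3 and 15.2 CPM in HF-1 to HF-4, 24.3, 23.1 and 25.7 in LF-1 to LF-3 and 20.4 in LF-4. LF-4 lay above all HF libraries in the first and inside their range in the second. The log2 fold change was -0.39 ± 0.19 for the other rows and 0.34 ± 0.25 for the sum.

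ZSWIM6, a zinc finger protein, had W copies at 16.8, 26.5, 18.6 and 17 CPM in HF-1 to HF-4, 0.965, 0.908 and 0.0928 in LF-1 to LF-3 and 23.7 in LF-4, and other rows at 17.2, 25.2, 18.8 and 22.3 CPM in HF-1 to HF-4, 35.4, 32 and 31.5 in LF-1 to LF-3 and 21.1 in LF-4. LF-4 fell within the HF range in both. The log2 fold change moved from -0.52 ± 0.19 in the other rows to 0.16 ± 0.17 in the sum.

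BTF3, the beta subunit of the nascent polypeptide-associated complex, had W copies at 8.04, 8.40, 21.5 and 18.9 CPM in HF-1 to HF-4, 0, 0 and 0 in LF-1 to LF-3 and 22.3 in LF-4, with HF-1 and HF-2 well below the remaining HF libraries. Its other row stood at 38, 38.1, 41.9 and 43.3 CPM in HF-1 to HF-4, 61.7, 69 and 68.1 in LF-1 to LF-3 and 50.9 in LF-4, where every LF library was above every HF library and LF-4 was the lowest of LF. The W share of the counts varied more between HF libraries than in most symbols, 17.5% to 33.9% in HF and 30.5% in LF-4.

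SMAD7, the inhibitory SMAD of TGF-beta signalling, had W copies at 21.9, 13.4, 18 and 19.5 CPM in HF-1 to HF-4, 2.17, 1.85 and 2.0 in LF-1 to LF-3 and 5.59 in LF-4. LF-4 was below every HF library there, as it was in the W copies of HINT1 and UBE2R2, and SMAD7 was the only one of the 19 in which LF-4 lay nearer to the median of LF-1 to LF-3 than to that of HF on the log2 scale. Its other rows stood at 9.20, 8.11, 10.9 and 11.6 CPM in HF-1 to HF-4, 16.3, 9.96 and 13.3 in LF-1 to LF-3 and 5.71 in LF-4. The log2 fold change was -0.18 ± 0.30 in the other rows and 0.99 ± 0.20 in the sum, and the HF and LF libraries did not overlap in the sum.

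HNRNPK and SUB1, a single-stranded DNA-binding coactivator of transcription, had almost all the counts under their symbols in rows counted as W copies. No row under either symbol was placed on Z, so W and Z copies cannot be compared in these genes. Both HNRNPK rows were counted as W copies, and the symbol stood at 23, 24, 25.6 and 25.4 CPM in HF-1 to HF-4, 4.99, 4.31 and 3.62 in LF-1 to LF-3 and 28.2 in LF-4. SUB1, whose W copies were told by the count criterion alone, stood at 12.2, 16.1, 18.1 and 15.4 CPM in HF-1 to HF-4, 0.322, 0 and 0.0464 in LF-1 to LF-3 and 14.5 in LF-4, and its only other row, matched to an autosome in the reference, held at most 4 counts in a library. The log2 fold change was 1.24 ± 0.60 in HNRNPK and 2.03 ± 1.30 in SUB1 with all libraries, and 2.51 and 7.42 without LF-4, the value for SUB1 resting on counts near 0 in LF.

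The W copies of the remaining 9 symbols were likewise told by counts alone. In RASA1, KCMF1, ZSWIM6, BTF3 and HNRNPK, too, most W-copy counts of HF and LF-4 lay in rows told by counts alone. Low values of such rows in LF-1 to LF-3 follow from the choice. VCP, the ATPase that pulls ubiquitylated proteins out of complexes, had W copies at 121, 104, 127 and 130.1 CPM in HF-1 to HF-4, 0.402, 0.168 and 0.186 in LF-1 to LF-3 and 113 in LF-4, or 41.4, 36.9, 43.7 and 44.8 FPKM across HF-1 to HF-4, against 0.140, 0.0600 and 0.0700 across LF-1 to LF-3 and 37 in LF-4, the second level per length. Its other row stood at 219.6, 204, 231 and 259 CPM in HF-1 to HF-4, 328, 393 and 349.7 in LF-1 to LF-3 and 210.1 in LF-4, with LF-4 among the HF libraries. The W share was steady across libraries that had it, 33.4% to 35.6% in HF and 34.9% in LF-4.

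NIPBL, the loader of cohesin, had a W row at 50.4 to 74 CPM in HF, 0 in LF-1 to LF-3 and 69 in LF-4 and other rows at 187 to 215 CPM in HF, 289.7 to 327 in LF-1 to LF-3 and 256 in LF-4. SMAD2, a SMAD activated by TGF-beta receptors, had W copies at 21.6 to 27.2 CPM in HF, 0.0804 to 0.337 in LF-1 to LF-3 and 28 in LF-4 and other rows at 52.9 to 61.1 CPM in HF, 75.9 to 82 in LF-1 to LF-3 and 61 in LF-4. CHD1, a chromatin remodeller whose Z and W copies are widely used to sex birds, had W copies at 16.6 to 21.2 CPM in HF, 0 to 0.0804 in LF-1 to LF-3 and 23.9 in LF-4 and other rows at 38.1 to 48.9 CPM in HF, 68.6 to 83.8 in LF-1 to LF-3 and 63.3 in LF-4. In each of these genes the other rows of LF-4 were below those of LF-1 to LF-3.

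UBE2R2, an E2 ubiquitin-conjugating enzyme, had W copies at 25.3 to 30.8 CPM in HF, 0 to 0.161 in LF-1 to LF-3 and 21.5 in LF-4 and other rows at 70.4 to 102 CPM in HF, 74.1 to 97.3 in LF-1 to LF-3 and 51.9 in LF-4. UBAP2, a ubiquitin-binding protein, had W copies at 9.43 to 19.6 CPM in HF, 0 to 0.303 in LF-1 to LF-3 and 15.4 in LF-4 and other rows at 72.2 to 75.2 CPM in HF, 70.2 to 89.6 in LF-1 to LF-3 and 65.5 in LF-4. PIAS2, a SUMO ligase, had W copies at 3.05 to 7.30 CPM in HF, 0 to 0.0336 in LF-1 to LF-3 and 6.77 in LF-4 and other rows at 28.5 to 34.7 CPM in HF, 25.3 to 28.7 in LF-1 to LF-3 and 25.6 in LF-4. In these 3 genes the other rows of LF-4 were below every HF library, and in PIAS2 they were also within the range of LF-1 to LF-3.

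In 2 symbols the W share of counts was small. ZFR, a zinc finger RNA-binding protein, had a W row at 1.20 to 4.14 CPM in HF, 0 in LF-1 to LF-3 and 12.4 in LF-4 and other rows at 74.7 to 90.6 CPM in HF, 76.2 to 81.2 in LF-1 to LF-3 and 158 in LF-4, the other rows of LF-4 standing apart from all libraries. TNPO1, a nuclear import receptor, had a W row at 0.598 to 1.66 CPM in HF, 0 in LF-1 to LF-3 and 0.689 in LF-4 and other rows at 178 to 211 CPM in HF, 186 to 232 in LF-1 to LF-3 and 214 in LF-4. The W share of ZFR was 1.58% to 5.03% in HF and 7.26% in LF-4 by counts, but 9.58% to 24.3% in HF and 30.5% in LF-4 per length in FPKM. These shares depend on the limit of 3%, since a ZFR row just outside it was counted with the other rows. That row held 96, 86, 146 and 171 counts across HF-1 to HF-4, 13, 17 and 8 across LF-1 to LF-3 and 531 in LF-4. It was larger than the W row in each of these libraries. The W share of TNPO1 was 0.318% to 0.883% in HF and 0.320% in LF-4 by counts and 1.51% to 4.14% in HF and 1.51% in LF-4 in FPKM.

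**Figure D2:**
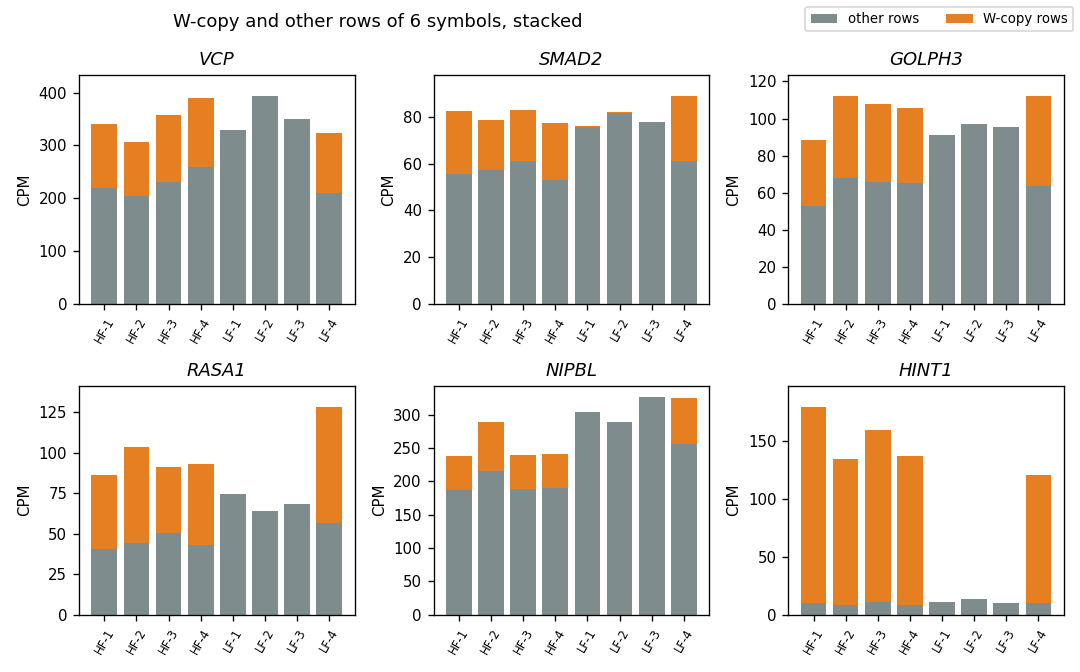
Counts of W copies and of other rows stacked for each library, in CPM from 0, for VCP, SMAD2, GOLPH3, RASA1, NIPBL and HINT1. In VCP, SMAD2, GOLPH3, RASA1 and NIPBL the other rows are lower in HF and LF-4 than in LF-1 to LF-3 and the W copies add to them, with the whole bar above LF-1 to LF-3 in RASA1. In HINT1 the W rows are nearly the whole bar in HF and LF-4, and the Z row is nearly the whole bar in LF-1 to LF-3.

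Among the 17 symbols with both W copies and other rows that passed the filter, the other rows were lower in HF in 15, with a median log2 fold change of -0.39. With the W copies added, 7 of 17 were lower and the median was 0.064, against 0.0012 over all genes tested. In limma on log2(FPKM + 1) the median of the whole symbols was 0.25, against 0.035 over all genes. Without LF-4 the medians were -0.47 and 0.13, and over all libraries left out in turn they ran from -0.47 to -0.35 and from 0.026 (without LF-1) to 0.13 (without HF-1). The levels of the whole symbol varied less across the 8 libraries than those of the other rows in 12 of 17, with a median ratio of the highest to the lowest library of 1.59 against 1.85. Since most W copies were told by low counts in LF-1 to LF-3, the gap between the medians is set in direction, and that between the spreads in part, by the split itself, and both are given as a description.

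In SMAD2 the ratio of the highest to the lowest library was 1.55 for the other rows and 1.17 for the sum. In VCP the ratios were 1.93 and 1.28. The log2 fold change was -0.39 ± 0.12 and -0.014 ± 0.10 in SMAD2, and -0.49 ± 0.19 and 0.00085 ± 0.12 in VCP. In CHD1 it was -0.81 ± 0.14 and -0.40 ± 0.13, in NIPBL -0.59 ± 0.12 and -0.31 ± 0.12, and in BTF3 -0.63 ± 0.13 and -0.32 ± 0.14, so that these 3 stayed below 0 in the sum.

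Where LF-4 lay was counted for the same 17 symbols. In their other rows LF-4 fell within the HF range alone in 6 (SMAD2, VCP, ZSWIM6, MIER3, GOLPH3 and KCMF1), within the range of LF-1 to LF-3 alone in 2, within both in 1 and within neither in 8. Over all genes tested, LF-4 lay in the HF range alone in 18.3% and in that of LF-1 to LF-3 alone in 16.4%. The split takes counts from HF and LF-4 alike, so nothing is read from the difference.

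**Figure D3:**
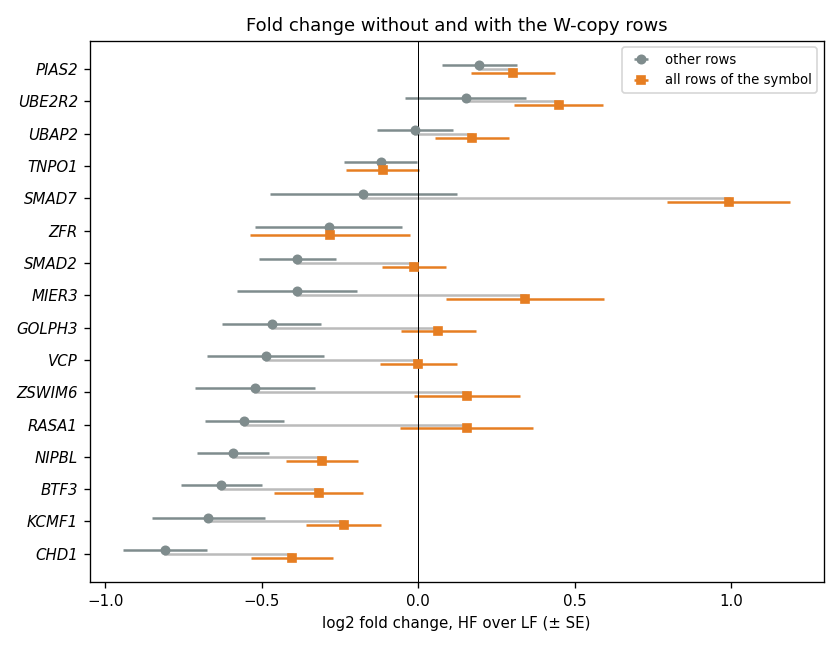
Log2 fold change (HF over LF) with its standard error for rows other than W copies (circles) and for the whole symbol (squares), for the members that have both except HINT1, whose sum at 2.02 lies off this scale. The circles lie mostly below 0 and the squares on both sides of it.

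The 13 members that passed the filter and had no row told as a W copy were mostly lower in HF, 11 of them, with a median log2 fold change of -0.78. RNF20, the ubiquitin ligase of histone H2B, stood at 68.7, 73.1, 75.5 and 86.7 CPM in HF-1 to HF-4, 140.3, 152 and 183 in LF-1 to LF-3 and 141 in LF-4. PLPP1, a phospholipid phosphatase of the cell membrane, stood at 135, 158, 116 and 149 CPM in HF-1 to HF-4, 262, 251 and 288 in LF-1 to LF-3 and 213 in LF-4. MTREX, the RNA helicase of the nuclear exosome, stood at 53.9, 48.1, 52.5 and 55.1 CPM in HF-1 to HF-4, 87.7, 88.3 and 93.4 in LF-1 to LF-3 and 90.4 in LF-4. Each of these 3 had all HF libraries below all LF libraries, LF-4 included.

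BDP1, a subunit of the transcription factor TFIIIB of RNA polymerase III, stood at 72.5, 83, 73.3 and 79.3 CPM in HF-1 to HF-4, 128, 159 and 158 in LF-1 to LF-3 and 126 in LF-4. WDR70, a WD-repeat protein, stood at 20.8, 21.1, 20.3 and 21.9 CPM in HF-1 to HF-4, 36.7, 40.0 and 42 in LF-1 to LF-3 and 33.1 in LF-4. IFT74, a subunit of the intraflagellar transport complex, stood at 6.59, 7.09, 4.49 and 4.56 CPM in HF-1 to HF-4, 12.7, 15.6 and 14.3 in LF-1 to LF-3 and 10.7 in LF-4. Here too the groups did not overlap, and LF-4 was the lowest LF library in each.

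JMY, an actin nucleator and p53 cofactor, stood at 87.1, 95.3, 90.1 and 84.8 CPM in HF-1 to HF-4, 144, 129 and 136 in LF-1 to LF-3 and 166 in LF-4, with LF-4 the highest of all libraries. ARRDC3, an alpha-arrestin, stood at 49.9, 75.6, 61.7 and 58.9 CPM in HF-1 to HF-4, 104, 134 and 96.1 in LF-1 to LF-3 and 103 in LF-4. The log2 fold changes of these 8 genes ran from -1.23 ± 0.22 in IFT74 to -0.69 ± 0.11 in JMY, and were -1.02 ± 0.13 in RNF20, -0.89 ± 0.12 in BDP1, -0.86 ± 0.14 in PLPP1, -0.85 ± 0.12 in WDR70, -0.83 ± 0.16 in ARRDC3 and -0.78 ± 0.10 in MTREX. LF-4 was in the HF range alone in 2 of the 13 and in that of LF-1 to LF-3 alone in 3, with 1 in both and 7 in neither.

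Cyclin H (CCNH) and its kinase CDK7, which act together in TFIIH, were lower in LF-4 than in the other LF libraries. CCNH stood at 27.9, 24, 32.9 and 26 CPM in HF-1 to HF-4, 45.9, 40.2 and 39.4 in LF-1 to LF-3 and 26.5 in LF-4, and CDK7 at 3.69, 4.16, 3.05 and 3.73 CPM in HF-1 to HF-4, 5.15, 4.78 and 5.75 in LF-1 to LF-3 and 2.88 in LF-4. APC, the scaffold of the beta-catenin destruction complex, stood at 162, 187, 171 and 190.4 CPM in HF-1 to HF-4, 203, 219.6 and 222 in LF-1 to LF-3 and 159 in LF-4, where LF-4 was below all HF libraries. ZNF532, a zinc finger protein, stood at 97.6 to 119.7 CPM in HF, 83.6 to 114 in LF-1 to LF-3 and 104 in LF-4, and TXNL1, a thioredoxin-like protein, at 57.6 to 85.6 CPM in HF, 48.6 to 73 in LF-1 to LF-3 and 78.8 in LF-4; both overlapped between the groups.

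**Figure D4:**
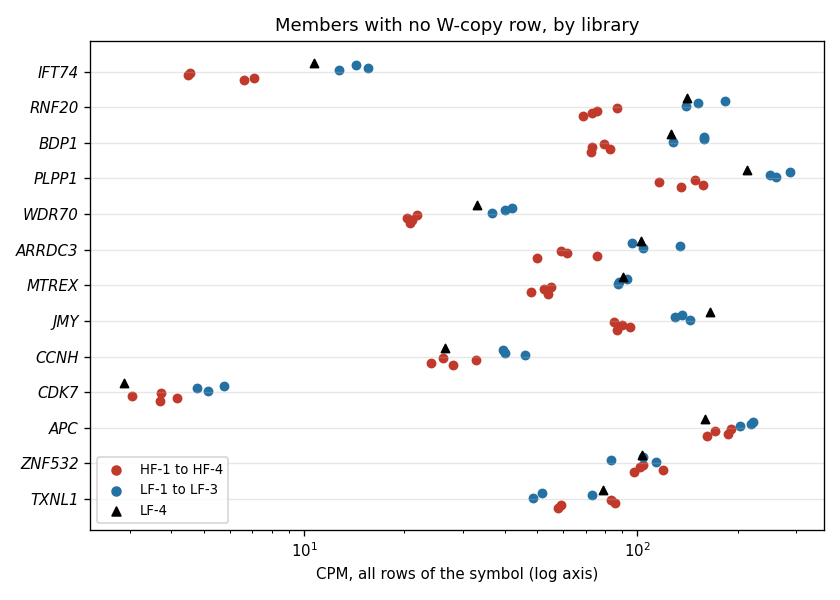
Level of each of the 13 members without W rows in each library, in CPM on a log axis, with LF-4 marked apart. In RNF20, MTREX, BDP1, WDR70, PLPP1, JMY, IFT74 and ARRDC3 all HF points lie below all LF points.

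Some members moved between transcript models while the symbol was steadier. In JMY the model TCONS_00068286 stood at 0, 7.38, 11.6 and 0 CPM in HF-1 to HF-4, 17, 29.7 and 31.6 in LF-1 to LF-3 and 63.6 in LF-4, while TCONS_00068287 stood at 42.8, 42.1, 30.0 and 4.65 CPM in HF-1 to HF-4, 22.1, 0 and 7.70 in LF-1 to LF-3 and 0 in LF-4. The first was at 0 in HF-1 and HF-4, the second in LF-2 and LF-4. A smaller JMY row had under 100 counts in all, so the count criterion could not take it. That row held 8, 7, 9 and 54 estimated counts across HF-1 to HF-4, 0 in each of LF-1 to LF-3 and 17 in LF-4. In UBAP2 the model TCONS_00067922 ran from 5.71 to 45.9 CPM over the libraries and TCONS_00067923 from 10.4 to 78.2, and neither followed the fat group. The UBAP2 model TCONS_00072384, not counted among the W copies because more than 3% of its counts lay in LF-1 to LF-3, stood at 11.7, 9.64, 10.8 and 7.36 CPM in HF-1 to HF-4, 2.98, 1.72 and 1.16 in LF-1 to LF-3 and 7.25 in LF-4. A PIAS2 row counted with its other rows had 21.0% of its counts in LF-1 to LF-3. It held 344, 235, 304 and 315 estimated counts across HF-1 to HF-4, 76, 204 and 137 across LF-1 to LF-3 and 371 in LF-4.

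Across the whole table, edgeR's quasi-likelihood test called 68 of 10511 genes at an adjusted p under 0.05 (0.647%), 31 higher in HF (0.295%) and 37 lower (0.352%). Of the 32 members tested, 7 were called lower (RNF20, MTREX, BDP1, WDR70, PLPP1, JMY and IFT74) and 0 higher. Since the members were taken from this same contrast, nothing is read from that count. Leaving out HF-1, HF-3 or HF-4 left 0 of these 7 called, leaving out LF-3 left 1, LF-1 4, LF-2 5 and HF-2 6, and leaving out LF-4 left all 7. Over all genes, 2 were called when HF-1 was left out, 6 with HF-4 left out, 14 with HF-3, 19 with LF-3, 30 with LF-1, 72 with LF-2, 76 with HF-2 and 92 with LF-4 left out. In the fit without HF-2, SMAD7 was called higher. In the fit without LF-4, HINT1, HNRNPK and SUB1 were called higher, which made 10 members beside 0.867% of all genes. At an unadjusted p under 0.05, 15 of the 32 members (46.9%), chosen on this contrast, stood beside 15% of all genes. DESeq2 called 10 members, beside 5.66% of the 10477 genes to which it gave an adjusted p, and limma on log2(FPKM + 1) called 7, beside 0.897% of all genes.

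Groups did not overlap in 3 members higher in HF (HINT1, SMAD7 and PIAS2) and 10 lower, beside 4.55% and 4.64% of all genes (9.19% in all). Of 121 member rows tested as single transcripts 0 were called, beside 0.0168% of all 23879 transcripts (0.0126% higher in HF and 0.00419% lower), with 24 at an unadjusted p under 0.05 beside 7.42%. DESeq2 called 12 member rows, beside 2.37% of the 20970 transcripts with an adjusted p, and limma 0, beside 0.0811%. Without LF-4, edgeR called 12 of 122 member rows, beside 35 transcripts in all (0.14%). When W copies and other rows were fitted as separate entries, 70 of 10528 entries were called (0.665%, 0.304% higher and 0.361% lower), among them the other rows of CHD1, the W copies of SMAD7 and the same 7 members without W rows. The split itself lowers other rows and raises W copies in HF, and the members were taken from this contrast. Nothing is therefore read from these member calls.

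Genes of chromosome Z outside the members were lower in HF more often than not. Of the 438 tested, 290 had a negative log2 fold change and the median was -0.23, against 0.0046 for the 8881 genes placed elsewhere. These were sums per symbol with copies not split, so a Z gene such as ATP5F1A, with a row placed on W, carries W counts too. The test called 1 of them higher and 5 lower. LF-4 was nearer to the HF median than to that of LF-1 to LF-3 in 55.5% of these Z genes and in 43.8% of genes elsewhere. The members' median without W rows, -0.78, lay below that of other Z genes, as their choice makes it.

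**Figure D5:**
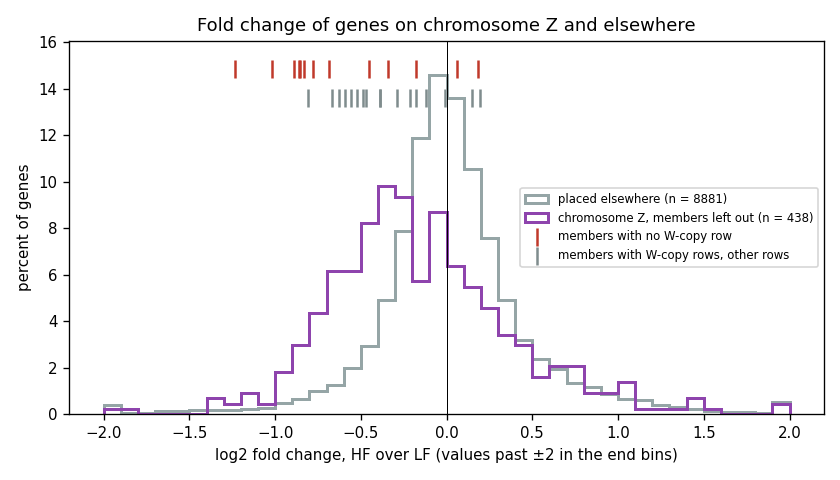
Distribution of log2 fold changes (HF over LF) of genes placed on chromosome Z without the members, and of genes placed elsewhere, as percent of each set, with the members as ticks above. The Z genes have a median of -0.23 against 0.0046, and values past 2 in either direction are in the end bins.

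The reference placed 33 of the 34 symbols on Z. KCMF1 was the exception by symbol, though the reference placed rows of KCMF1 on Z under another gene name. In the order of protein-coding genes on Z, 4 pairs of members were direct neighbours, UBE2R2 with UBAP2, ZFR with SUB1, MTREX with PLPP1 and RASA1 with CCNH. MTREX and PLPP1 were both lower in all 4 HF libraries than in any LF library. The other pairs had mixed log2 fold changes as whole symbols. They were 0.15 ± 0.21 in RASA1 and -0.45 ± 0.18 in CCNH, and 0.45 ± 0.14 in UBE2R2 and 0.17 ± 0.12 in UBAP2. In ZFR and SUB1 they were -0.28 ± 0.26 and 2.03 ± 1.30. RASA1 outside its W copies stood at -0.56 ± 0.13, a value that the split itself lowers. Up to 3 genes lay between 7 pairs in all.

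In edgeR calls and unadjusted p, the partners and relatives of the member proteins lay near the background of all genes. Of 76 listed, 63 were tested and edgeR called 0, beside 0.647% of all genes, with 10 at an unadjusted p under 0.05 (15.9%, beside 15%). DESeq2 called 2, beside 5.66% of all genes, and limma 0, beside 0.897%. The smallest p were in WAC, a partner of RNF20, with a log2 fold change of -0.58 ± 0.14 (edgeR adjusted p = 0.104), and SMURF2, a ubiquitin ligase that acts with SMAD7, with -0.56 ± 0.15 (edgeR adjusted p = 0.121). WAC was lower in all 4 HF libraries than in any LF library, at 116, 133, 108 and 139 CPM against 189.9, 158, 169 and 221. SMURF2 was likewise lower in each HF library than in any LF library. The groups did not overlap in 10 of the 63 (15.9%), beside 9.19% of all genes. The median of the list was -0.049.

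Among 6 further genes known to have a W copy in birds, 3 were tested and edgeR, DESeq2 and limma each called 0, with 0 at an unadjusted p under 0.05 by edgeR. With 3 genes and a background of 0.647% (15% unadjusted), these counts say little about the list. ATP5F1A, the alpha subunit of mitochondrial ATP synthase, stood at -0.13 ± 0.17 (edgeR adjusted p = 0.762). Its sum takes in a row placed on W, at 1354, 1022.5, 1820.5 and 1847.5 counts across HF-1 to HF-4. That row held 121, 753 and 417 counts across LF-1 to LF-3 and 1915 in LF-4, so the sum mixes copies. RPL17, a protein of the large ribosomal subunit, stood at 0.13 ± 0.16 (edgeR adjusted p = 0.770). C18ORF25 had a log2 fold change of -0.033.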

How the data were processed

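Expression in abdominal fat was measured by RNA-seq in 8 libraries, grouped by sample title into 4 HF and 4 LF. The authors deposited estimated counts and FPKM per mRNA transcript and library, per the file headers. The submitters' processing notes list Bowtie2 2.2.8 and TopHat2 2.1.1, giving neither a role. No quantifier, genome build or strandedness is given in the sources used here, so overlapping and antisense genes cannot be told apart. No sample column was left unused (0).

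Estimated counts, not whole as deposited, were rounded, then tested per transcript and as sums per symbol; the 2137 rows without a symbol stayed out of the sums. edgeR 4.0.16 in R 4.3.3 (quasi-likelihood test, TMM scaling, filterByExpr, group as the only term, Benjamini-Hochberg adjustment over the whole table) was run on all 8 libraries. Levels are CPM with the TMM scaling. Standard errors were the fold change over the root of its F statistic. Since no label names separate birds, p-values measure the spread between these samples only.

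Members and lists were chosen with earlier results of these data known, so members' HF and LF values carry no test. W copies were told by description, by accession (version ignored, 18663 rows matched; with version 151) in the reference gene table, or by a limit of 3% of a row's counts in LF-1 to LF-3 with at least 100 counts, chosen after seeing the data. Named in every library were W-described rows, symbols with a W copy and another copy by description or reference, and the 12 members with the largest fold change; of each list up to 4 genes past the threshold, otherwise the 2 of smallest p. VCP, CCNH, CDK7, APC and the single transcripts of JMY and UBAP2 were given in every library after their values were seen. So were a row of PIAS2 and rows of SPINZ and ATP5F1A placed on W. Alternatives were 2 other scalings, DESeq2 1.42.0, limma 3.58.1 on log2(FPKM + 1) keeping transcripts of mean FPKM 0.5 or more, no filter, the replicate block and leaving out each library. The code was tested on simulated data. Depth per library is given with the results, and a count of 0 allows up to 3 counts. No sequences or coordinates are printed, as no genome was used here.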

Additional observations from a re-analysis of the deposited data

Results flagged for a closer look

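In each group of 4 libraries, the highest or lowest was compared with the range of the group by Dixon's criterion, at which chance marks about 1 in 20 groups. Of 140 groups of values, 31 were marked, and 18 of these were LF-4 in a W copy. The 140 take in groups that were not compared, having no spread or a highest value under 1 CPM. The W row of TNPO1 in LF was among these. HNRNPK was marked both as a whole symbol and as W copies, which are the same rows. Since LF-1 to LF-3 are near 0 in W copies by the way most were told, these marks restate that LF-4 carries them.

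LF-4 stood above the other LF libraries in the W copies of HINT1 with Wpkci (110.4 CPM), VCP (112.6), RASA1 (71.8), NIPBL (68.96), GOLPH3 (48.54), HNRNPK (28.24), SMAD2 (28), MIER3 (26.58), CHD1 (23.87), ZSWIM6 (23.74), BTF3 (22.29), UBE2R2 (21.47), UBAP2 (15.4), KCMF1 (14.99), SUB1 (14.46), ZFR (12.4), PIAS2 (6.767) and SMAD7 (5.591). It also stood above them in the whole symbols RASA1 (128.4 CPM), HINT1 (57.45), MIER3 (46.96), HNRNPK (28.24), SUB1 (14.46) and ZFR (170.8). In ZFR the rows other than the W copy were marked too, at 158.4 CPM in LF-4.

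Within HF, HF-2 stood above the others in NIPBL, at 288.9 CPM for the whole symbol, 214.9 for the other rows and 74 for the W row. HF-2 was also highest in the W copies of CHD1 (21.18 CPM) and in PIAS2 (42 CPM), and HF-4 in the W copies of UBE2R2 (30.83 CPM). HF-2 had the lowest total count of the HF libraries; the part of depth in these values was not tested.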

How the results depend on the processing

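Transcripts called numbered 4, against 498 with DESeq2, 16 with limma on log2(FPKM + 1), 0 with no low-count filter, and 0 to 35 when each library was left out. Genes called numbered 68, against 593 with DESeq2 and 2 to 92 when each library was left out. The cause was not tested. The median log2 fold change of the 17 whole symbols moved from 0.064 to 0.25 with limma. Symbols with a W copy numbered 9 by description or reference, 3 by description only and 19 with rows at no more than 1%, 3% or 5% of their counts in LF-1 to LF-3. For members as whole symbols and for their other rows, 674 recomputed values lay within the spread between replicates and 12 moved beyond it. The W copies taken alone were not part of this check. A reversal of sign was looked for only in values called in the main fit, where 0 reversed. Values not called could change sign, as in ZFR, which ran from -0.40 to 0.091 when each library was left out. Equal replicate numbers did not pair libraries, their deviations correlating at -0.00076, -0.22, -0.14 and 0.028 for numbers 1 to 4. With the replicate block 0 transcripts, 9 genes and 0 of the 7 called members passed. At the depth of these libraries, the W row of TNPO1, at 13 to 40 counts in HF, cannot be ordered between libraries.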
